A study of Homo sapiens with 8 samples.

Results

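The let-7 guide strands are 9 mature miRNAs that share 1 seed, and they are described here in H1299 lung carcinoma cells with and without mutant p53R273H, before and after the topoisomerase II poison etoposide. The members were chosen by name, as let-7a, let-7b, let-7c, let-7d, let-7e, let-7f, let-7g and let-7i (5p strands) together with miR-98-5p, and all 9 were found among the 945 miRNAs measured. The small RNA libraries were sequenced on an Ion PGM instrument and fell into 4 groups of 2: H1299/EV untreated, H1299/EV treated with etoposide, H1299/R273H untreated and H1299/R273H treated with etoposide. H1299, a widely used non-small cell lung carcinoma line taken from a lymph node, makes no p53, and all cells were at passages 15-20. The EV cells had been infected with an empty vector in another laboratory, whereas the R273H cells were grown from G418-resistant colonies after transfection with a pCMV plasmid carrying the mutant cDNA. Origin, vector and drug selection therefore cannot be told apart from mutant p53 in any comparison of the lines. Etoposide was given for 24 hours, at 10 µM by one label and 10 mM by another, and the labels name no vehicle control. The study calls the libraries of a group biological replicates, but neither it nor the labels say that they were separate cultures, and p-values measure the spread between these libraries, which may be technical.

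let-7 was among the first miRNAs to be discovered, in the nematode, where it times the passage to the adult. In mammals the family rises as cells differentiate and is known as a brake on growth, with RAS genes, HMGA2 and MYC among its classical targets. The RNA-binding proteins LIN28A and LIN28B block the processing of let-7 precursors. let-7i has earlier been named among the miRNAs that respond to mutant p53. The guide strand is the arm loaded into Argonaute, and the passenger strand is the arm that is usually degraded. Bases 2 to 8 of the guide, the seed, choose most targets, so members with the same seed compete for largely the same sites.

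The mature sequences are shown because the members differ from each other by so few bases, which matters for how reads were assigned to them. They are taken from RefSeq (GRCh38.p14) and written 5′ to 3′, with the seed in capitals.
let-7a-5p: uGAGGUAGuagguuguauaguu
let-7b-5p: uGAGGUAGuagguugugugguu
let-7c-5p: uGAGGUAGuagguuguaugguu
let-7d-5p: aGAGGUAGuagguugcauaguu
let-7e-5p: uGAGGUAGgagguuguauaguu
let-7f-5p: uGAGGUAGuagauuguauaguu
let-7g-5p: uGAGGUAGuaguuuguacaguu
let-7i-5p: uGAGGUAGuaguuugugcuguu
miR-98-5p: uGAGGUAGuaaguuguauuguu

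All 9 are 22 bases long. Counted from 1 at the 5′ end and with the base of let-7a first, let-7c differs from let-7a by A19G, let-7e by U9G and let-7f by G12A. let-7b carries A17G and A19G and is therefore 1 base away from let-7c. let-7d differs by U1A and U16C, let-7g by G12U and U18C, and miR-98 by G11A and A19U. let-7i is the most distant from let-7a, with G12U, A17G, U18C and A19U. Of the 36 pairs, 4 differed by 1 base (let-7a with let-7c, let-7e and let-7f, and let-7b with let-7c) and 10 by 2 bases, up to 6 bases between let-7d and let-7i. How reads that match several members were shared out is not given in the sources used here, and how many let-7a reads with 1 misread base were counted for let-7c, let-7e or let-7f was not tested. The RefSeq table held 2 further human miRNAs with the same seed, miR-4458 and miR-4500, which were in none of the expression tables.

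The 9 guides come from 12 genes, and the files do not say which copy a read of let-7a or let-7f came from. In GRCh37 with GENCODE 44, MIRLET7A1 (chr9:96938234-96938325, plus strand), MIRLET7F1 (chr9:96938629-96938715) and MIRLET7D (chr9:96941116-96941202) lie together and overlap exons of the non-coding gene MIRLET7A1HG on the same strand. let-7d thus has its single gene beside 1 of the 3 genes of let-7a and 1 of the 2 genes of let-7f. MIRLET7A3 (chr22:46508629-46508702) and MIRLET7B (chr22:46509566-46509648) overlap exons of MIRLET7BHG. MIRLET7F2 (chrX:53584153-53584235) and MIR98 (chrX:53583184-53583302) lie on the minus strand in an intron of HUWE1. The remaining genes stand without a second let-7 gene beside them. MIRLET7A2 (chr11:122017229-122017301) lies in an intron of MIR100HG, and MIRLET7C (chr21:17912143-17912236) overlaps an exon of MIR99AHG. MIRLET7E (chr19:52196039-52196117) lies in an intron of SPACA6 and MIRLET7G (chr3:52302292-52302379) in an intron of WDR82. MIRLET7I (chr12:62997466-62997550) lies in an intron of MIRLET7IHG and overlaps an exon of the non-coding gene ENSG00000275180 on the same strand.

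The libraries held between 213007 and 536991 miRNA reads, and the most abundant miRNA, miR-21-5p, took 30.6% to 44.5% of them. Marker miRNAs of epithelium and of other cell types were far below let-7a in every library, but not all were below the rarest members. The 6 epithelial markers (the miR-200 family and miR-205-5p) summed to between 3.95 and 44.3 RPM (reads of a miRNA for each 1000000 miRNA reads of the library), 4 of 6 blood markers were in the tables and summed to between 25.7 and 117, and miR-122-5p of liver did not pass 32.9. The 3 muscle markers found summed to at most 59.0, miR-124-3p of neurons reached 14.1, and the 2 embryonic stem cell markers found summed to at most 1.97. With 2 libraries in a group, an exact permutation test of a single value cannot give a p-value below 0.33. Wilson intervals cover counting error only, whereas the intervals of fold changes come from limma and rest on the spread between libraries.

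let-7a dominated the family. The level of hsa-let-7a-5p ranged over the 8 libraries from 15795 to 27269 RPM with a median of 19385, the 11th highest among all miRNAs, and it took 70.8% to 83.1% of the reads of the 9 members. hsa-let-7f-5p (1483 to 3803, median 2489 RPM) and hsa-let-7e-5p (1395 to 3609, median 2072) followed. These ranges overlapped, and let-7f was above let-7e in 5 of 8 libraries. hsa-let-7g-5p came next, at 376 to 1230 with a median of 690 RPM, below let-7e and above let-7b in every library and with no overlap of the ranges on either side.

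hsa-let-7b-5p (106 to 358, median 171 RPM), hsa-let-7d-5p (55.3 to 254, median 158) and hsa-let-7i-5p (56.5 to 272, median 114) formed a group whose ranges overlapped. let-7b was above let-7d in 6 of 8 libraries, and let-7d above let-7i in 5. hsa-miR-98-5p (12.01 to 70.4, median 24.9) and hsa-let-7c-5p (8.01 to 41.4, median 17.9) were at the bottom, with miR-98 the higher in 6 of 8 libraries. let-7c rested on 2 to 16 reads and miR-98 on 3 to 17 reads per library, and for each 100 reads of let-7a there were only between 0.038 and 0.166 reads of let-7c. Levels of different miRNAs also carry the bias of adapter ligation, which was not measured.

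**Figure D1:**
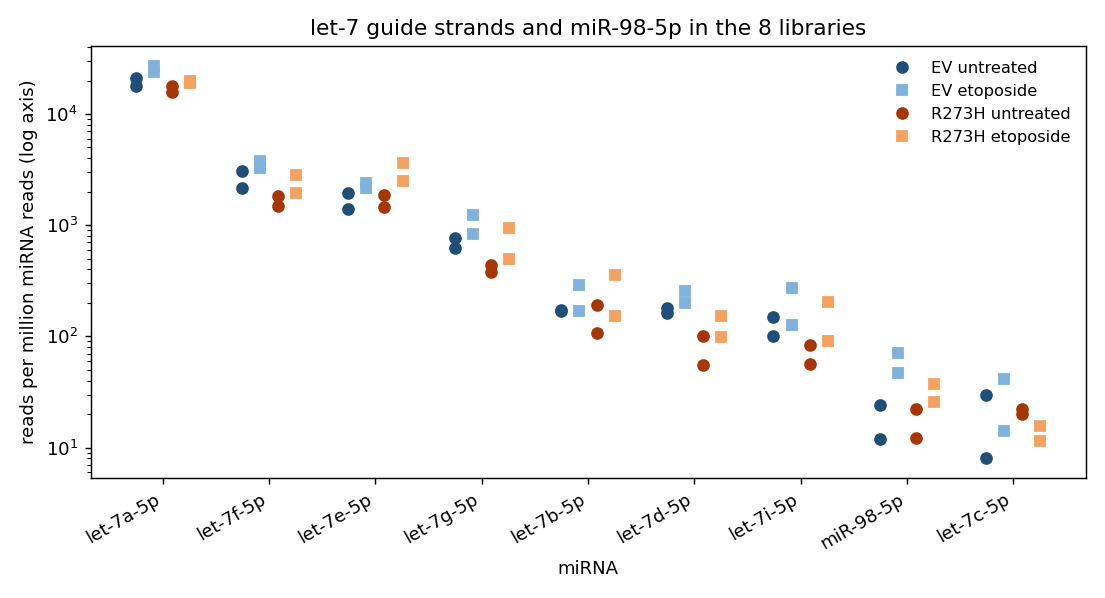
Level of each member in the 8 libraries, in RPM on a log axis; each point is 1 library, circles are untreated and squares etoposide-treated, EV in blue and R273H in orange. let-7a lies between 15795 and 27269, and the R273H points of let-7d all lie below its EV points.

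The question put to the untreated libraries was how let-7 levels differed between the R273H and EV lines. The clearest member was let-7d, at about 0.47 of its EV level in R273H cells, but no member passed an adjusted p-value of 0.05 (0 of 9 in limma, against 20.4% of the 304 miRNAs tested). At an unadjusted p-value under 0.05, 1 of 9 members (let-7d) passed, against 32.6% of all miRNAs. All 9 members passed the filter on low counts. The groups did not overlap, with R273H below EV, for 4 of 9 members (let-7d, let-7f, let-7g and let-7i), where 26.6% of all miRNAs did so. They were higher without overlap for 0 of 9 members, against 34.9% of all miRNAs. The median log2 fold change was -0.17 over the 9 members and 0.10 over all miRNAs.

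In normalized counts (reads divided by a size factor of the library), let-7d was at 60.9 and 71.7 in the EV libraries and at 25.65 and 36.4 in the R273H libraries. Both R273H values lay below both EV values. On the log2(normalized count + 1) scale used for all fold changes, the difference was -1.09 (SE 0.41), a fold of 0.471 with a 95% interval from 0.260 to 0.852 (limma, adjusted p = 0.0668). Behind these values stood 88 and 45 reads of the EV libraries and 25 and 41 reads of the R273H libraries.

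let-7f, a near copy of let-7a that shares a cluster with let-7d, was at 799 and 1219 in EV and at 687 and 660 in R273H (log2 fold change -0.55, SE 0.30, adjusted p = 0.199). let-7g, from the gene inside WDR82, was at 230.5 and 303 in EV and at 174 and 159 in R273H (-0.66, SE 0.33, adjusted p = 0.164). let-7i was at 56.1 and 39.8 in EV and at 39.0 and 20.4 in R273H (-0.72, SE 0.45, adjusted p = 0.254). In each of these 3 members the R273H libraries were the lower ones, and for let-7i the gap between the groups was less than 1 normalized count. None of the 3 differences passed the test.

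The remaining 5 members overlapped between the lines in normalized counts. let-7a was at 6692 and 8457 in EV and at 8246 and 5710 in R273H (log2 fold change -0.13, SE 0.27, 95% interval from -0.70 to 0.43). In RPM it was at 18000.3 and 21240 in EV and at 17788 and 15795 in R273H, without overlap. let-7e, the member encoded with miR-99b and miR-125a, was at 519 and 781 in EV and at 682 and 681 in R273H (0.10, 95% interval from -0.53 to 0.73). Both R273H values of let-7e thus fell between its EV values. let-7b gave -0.17 (adjusted p = 0.787), let-7c 0.43 (adjusted p = 0.668) and miR-98 0.04 (adjusted p = 0.967), and the interval of let-7c reached from -0.84 to 1.70.

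The etoposide-treated libraries put the same question with 4 other libraries. let-7d was again lower in R273H than in EV: 65.6 and 97.6 normalized counts in EV against 39.7 and 38.3 in R273H, without overlap (log2 fold change -1.02, SE 0.38, fold 0.494 with a 95% interval from 0.295 to 0.825). It was the only member that passed (limma, adjusted p = 0.0388), 1 of 9 against 19.5% of the 334 miRNAs tested, or 7.78% counting only those lower in R273H. With let-7g, 2 of 9 members had an unadjusted p-value under 0.05, against 33.8% of all miRNAs. Among the alternatives that keep all 4 libraries, the call of let-7d held only with a pseudocount of 5, a minimum mean of 10 and edgeR. Dropping 1 library leaves a group of 1, so such fits cannot decide whether the call holds. In them let-7d stayed lower in R273H, by -1.30 to -0.74 on the log2 scale.

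let-7f was at 983 and 1609 in EV and at 778 and 713 in R273H under etoposide (log2 fold change -0.76, adjusted p = 0.154). let-7g was at 318 and 411 in EV and at 199 and 238 in R273H (-0.73, adjusted p = 0.113). miR-98 was at 18.2 and 23.0 in EV and at 10.3 and 9.39 in R273H (-0.99, adjusted p = 0.154). With let-7d and let-7i (-0.60, adjusted p = 0.254), 5 of 9 members were lower in both R273H libraries than in both EV libraries, where 23.4% of all miRNAs did so. The median log2 fold change was -0.73 over the 9 members and 0.23 over all miRNAs.

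let-7a was at 6151 and 13386 in EV and at 7636 and 4984 in R273H under etoposide, with both R273H values below the higher EV value and 1 of them above the lower (log2 fold change -0.56, SE 0.64, adjusted p = 0.584). let-7e was the only member with a value above 0 (0.23, adjusted p = 0.716). let-7b gave -0.08 and let-7c -0.90 (adjusted p = 0.354), and both overlapped between the lines. In RPM the same libraries held 23783 and 27269 of let-7a in EV and 18994 and 19776 in R273H, without overlap, so the overlap of let-7a depended on the scaling.

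**Figure D2:**
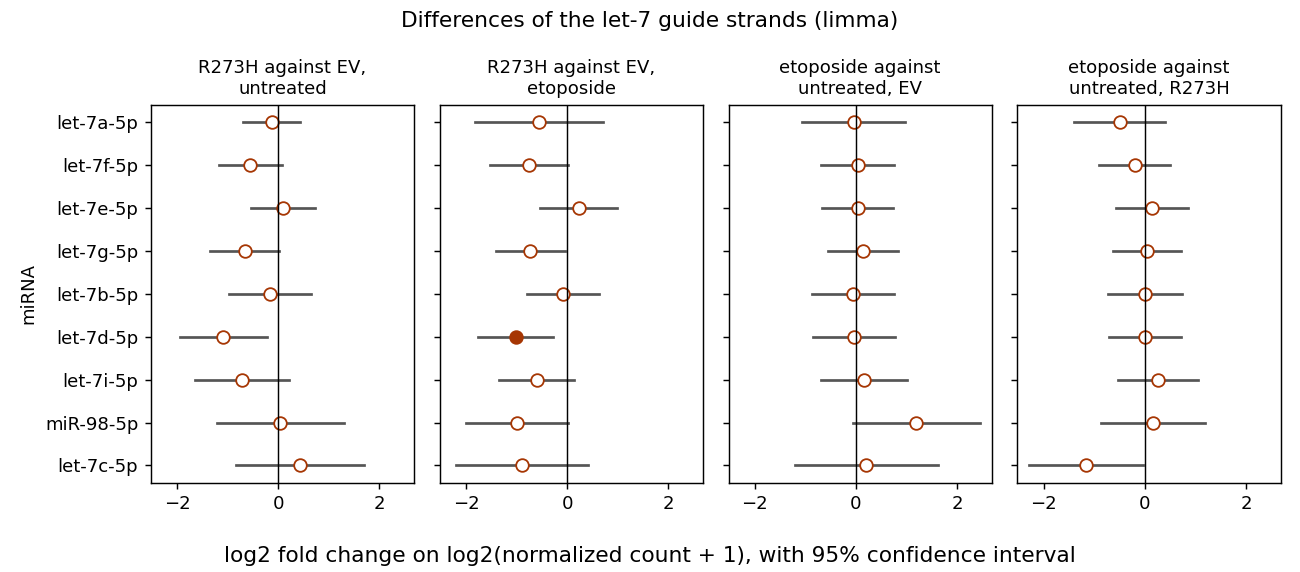
Log2 fold change of each member in 4 comparisons, in members ordered by level, with the 95% confidence interval of limma (2 libraries in each group); the filled point has an adjusted p-value under 0.05. let-7d lies near -1 in both comparisons of the lines and at 0 in both comparisons of etoposide.

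Over all 8 libraries on 1 set of size factors, 3 members were lower in each of the 4 R273H libraries than in each of the 4 EV libraries: let-7d, let-7f and let-7g, against 12.5% of the 321 miRNAs tested. let-7d had a lowest, median and highest value of 59.1, 72.3 and 80.8 normalized counts in EV and of 28.9, 34.1 and 40.8 in R273H. let-7f had 853, 1109 and 1352 in EV and 626, 708 and 775 in R273H. let-7g had 246, 311 and 340 in EV and 174, 187 and 209 in R273H. In RPM only let-7d kept the 2 lines apart, where 7.17% of all miRNAs were lower without overlap, while let-7f and let-7g overlapped. The libraries are those of the comparisons above, so the count adds no new samples.

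Shares within the family do not depend on how libraries are scaled to each other. let-7d took 0.578% to 0.795% of the let-7 reads in the 4 EV libraries (median 0.688%) and 0.258% to 0.544% in the 4 R273H libraries (median 0.451%). It was the only one of the 9 members whose shares did not overlap between the lines. How many of all miRNAs lie apart on this scale is not given here. let-7a held 70.8% to 83.1% of the let-7 reads, so each share is largely set against let-7a. let-7f took 9.46% to 11.9% in EV and 6.93% to 10.1% in R273H. let-7e took 6.14% to 7.13% in EV and 6.88% to 12.9% in R273H, with the 3 highest shares all in R273H libraries. For each 100 reads of let-7f, encoded in part beside it on chromosome 9, there were 5.88 to 7.63 reads of let-7d in EV and 3.73 to 5.52 in R273H. The ratio was chosen after the values were seen.

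**Figure D3:**
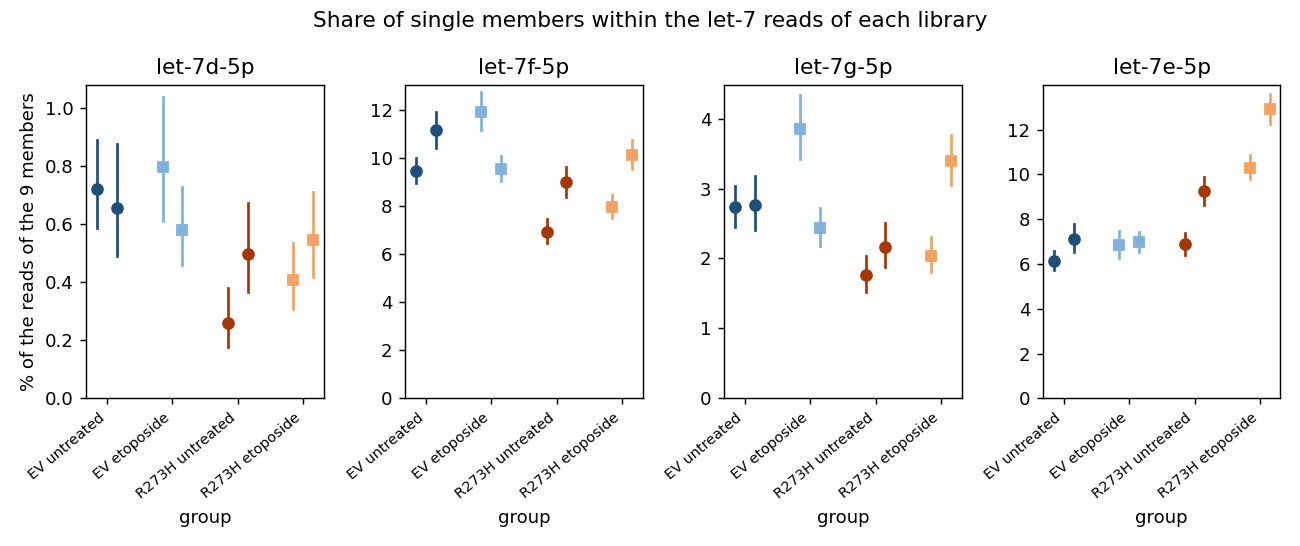
Share of 4 members in the let-7 reads of each library, in percent, with 95% Wilson intervals that cover counting error only; each point is 1 library, circles are untreated and squares etoposide-treated. For let-7d the highest R273H share is 0.544% and the lowest EV share 0.578%, with overlapping intervals.

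As a share of all miRNA reads the 9 members together were lowest in untreated R273H cells and highest in treated EV cells. They took 2.27% and 2.75% in untreated EV, 3.19% and 3.44% in treated EV, 2.14% and 2.03% in untreated R273H, and 2.43% and 2.79% in treated R273H. In each of 4 comparisons the 2 groups did not overlap, and the exact two-sided permutation p-value was 0.33, the smallest possible. The R273H share was lower than that of EV without etoposide (2.09% ± 0.08 against 2.51% ± 0.34, SD, n = 2, log2 ratio -0.27) and with it (2.61% ± 0.26 against 3.31% ± 0.17, log2 ratio -0.34). The treated share was above the untreated one in EV (log2 ratio 0.40) and in R273H (0.32).

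The direction under etoposide depended on the scaling. Summed normalized counts on size factors over the 8 libraries were 9015 and 12134 in untreated EV, 7432 and 13962 in treated EV, 11189 and 8222 in untreated R273H, and 8518 and 6182 in treated R273H. On this scale the lines overlapped both without and with etoposide, so their separation by share depended on the scaling too. With the size factors of each line's own table, the log2 ratio of treated to untreated sums was 0.04 in EV and -0.38 in R273H, the latter opposite in sign to that of the share. The median miRNA of each line's own table moved by 0.39 in EV and 0.71 in R273H (log2) in RPM, and by -0.03 and 0.02 in normalized counts, so the let-7 sum lay below the median miRNA of R273H on either scale. miR-21-5p, which sets much of the total, took 41.3% of miRNA reads in both untreated EV libraries, 33.5% and 44.5% in treated EV, 43.8% and 38.2% in untreated R273H, and 37.4% and 30.6% in treated R273H.

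**Figure D4:**
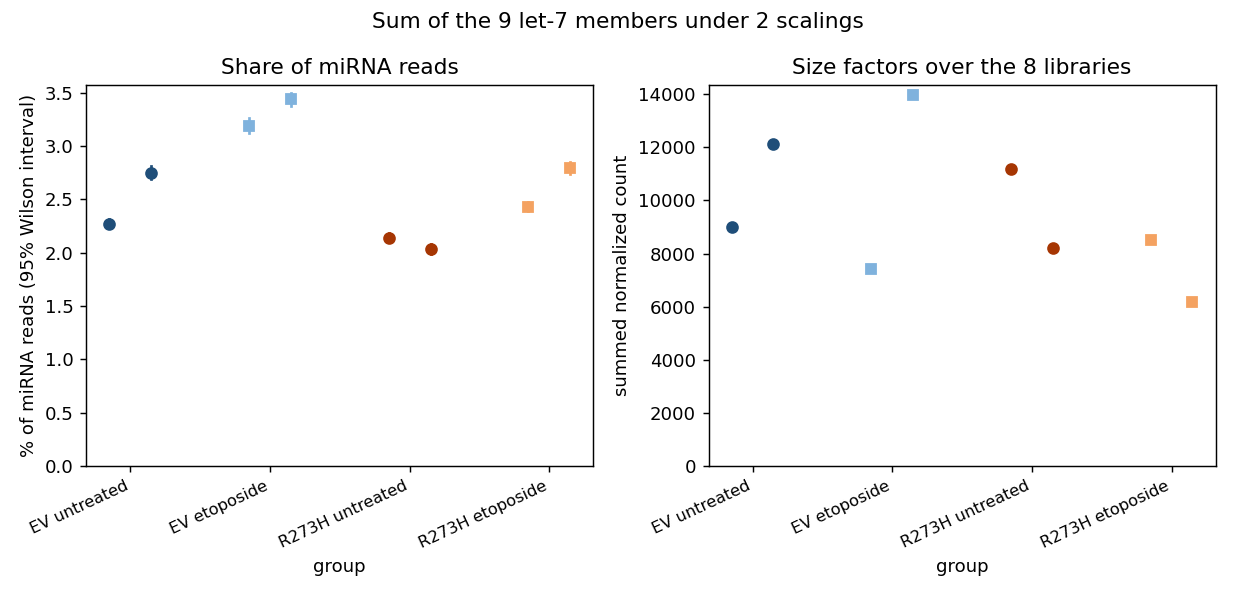
Sum of the 9 members in each library as a percentage of miRNA reads with 95% Wilson intervals (left) and as a summed normalized count (right), both axes from 0; each point is 1 library. Treated libraries lie above untreated ones of the same line on the left, and overlap with them on the right.

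Within EV cells no member moved past the threshold under etoposide: 0 of 9 passed an adjusted p-value of 0.05 in limma, against 0.676% of the 296 miRNAs tested, and 0 of 9 had an unadjusted p-value under 0.05, against 8.11%. Both edgeR and DESeq2 also called 0 members, and each called 1 of the 296 miRNAs. miR-98 alone did not overlap, with 8.38 and 4.54 normalized counts untreated and 14.3 and 16.7 treated, where 18.6% of all miRNAs were higher without overlap. Its log2 fold change was 1.19 (SE 0.64, fold interval from 0.957 to 5.45, adjusted p = 0.598), from 13 and 3 reads against 15 and 17 reads. The other 8 members lay between -0.05 and 0.21. For let-7d the interval reached from -0.85 to 0.77, a fold from 0.556 to 1.70. For comparison, miR-34a-5p, which wild-type p53 induces, was at 12.2 and 16.7 untreated and 42.0 and 31.5 treated in these p53-null cells (1.29, adjusted p = 0.302). In R273H cells it was at 21.3 and 35.4 untreated and 46.2 and 62.4 treated (0.94, limma, adjusted p = 0.472). Its difference of responses between the lines was -0.36 (SE 0.61).

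Within R273H cells 0 of 9 members passed an adjusted p-value of 0.05 in limma, against 0.0% of the 341 miRNAs tested, and 1 of 9 had an unadjusted p-value under 0.05, against 9.09%. edgeR and DESeq2 called 0 members as well, and 0 and 1 of the 341 miRNAs. The member with an unadjusted p-value under 0.05 was let-7c, from MIR99AHG, at 11.97 and 10.6 normalized counts untreated and 6.60 and 2.97 treated (log2 fold change -1.16, SE 0.52, adjusted p = 0.495), from 9 and 9 reads against 8 and 4 reads. let-7f was lower without overlap (891 and 877 against 808 and 733, log2 fold change -0.20) and let-7e higher without overlap (884 and 905 against 1046 and 935, 0.14), and neither difference passed the test. The groups did not overlap for 3 of 9 members and for 39.3% of all miRNAs. let-7a gave -0.50 (adjusted p = 0.721), and the remaining members lay between 0.00 and 0.26.

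The etoposide response did not differ detectably between the lines for any member. In the fit of all 8 libraries, 0 of 9 members had an adjusted p-value under 0.05 in limma (0.0% of 321 miRNAs) and 0 of 9 an unadjusted p-value under 0.05 (3.43%). Both edgeR and DESeq2 called 0 members and 0 of the 321 miRNAs. The difference of responses, R273H minus EV on the log2 scale, ran from -1.34 for let-7c (SE 0.95, 95% interval from -3.30 to 0.61) and -1.04 for miR-98 (SE 0.78) to 0.11 for let-7e. For let-7d it was 0.05 with an interval from -1.06 to 1.15. The 2 comparisons of etoposide share their untreated libraries with the comparison of the untreated lines.

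Several let-7 genes share a host transcript with members of the miR-100/99 and miR-125 families, which have other seeds. miR-125b-5p was at 3440 and 2356 normalized counts in untreated EV and at 1237 and 1259 in untreated R273H (log2 fold change -1.19, limma, adjusted p = 0.0054). miR-99a-5p, the partner of let-7c in MIR99AHG, was at 45.0 and 38.25 against 8.21 and 8 (-2.22, adjusted p = 0.0031). Both fell in R273H, while let-7c itself gave 0.43 on 2 to 16 reads. With 1 untreated library left out, the log2 fold change ran from -1.46 to -0.92 for miR-125b-5p and from -2.34 to -2.11 for miR-99a-5p. Such a fit leaves 1 library in a group, so only the size of the difference is given. Under etoposide the values for the lines were -1.14 for miR-125b-5p (adjusted p = 0.0598) and -1.02 for miR-99a-5p (adjusted p = 0.137).

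miR-100-5p, the partner of let-7a-2 in MIR100HG, gave -0.63 (adjusted p = 0.121) without and -1.20 (adjusted p = 0.191) with etoposide. The partners of let-7e, miR-99b-5p (-0.07, adjusted p = 0.894) and miR-125a-5p (-0.38, adjusted p = 0.499), overlapped between the untreated lines or missed the threshold, as let-7e did. Under etoposide they gave 0.26 (adjusted p = 0.651) and 0.55 (adjusted p = 0.258). miR-125b-5p has a gene in both MIR100HG and MIR99AHG, and its reads cannot be split between them.

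Passenger strands were rare beside the guides. The 10 let-7 and miR-98 passenger strands found in the tables together had 11 to 37 reads in the EV libraries and 30 to 71 in the R273H libraries, and there were 286 to 889 guide reads for each passenger read in EV and 144 to 276 in R273H. let-7a-3p, the passenger of let-7a-1 and let-7a-3, had the most reads of these in each R273H library. With its reads left out, the ratios of guide to passenger reads overlapped between the lines. The reads of let-7a-3p, not scaled to depth, numbered 6, 5, 1 and 4 over the EV libraries against 46, 13, 50 and 43 over the R273H libraries. They did not overlap, while the let-7a guide overlapped between the lines. In normalized counts of the untreated libraries alone, 34.9% of the 304 miRNAs tested were higher in R273H without overlap. The share over all 8 libraries is not given here. let-7a-2-3p, the passenger of the third let-7a gene, numbered 21, 11, 5 and 3 over the EV libraries against 6, 10, 3 and 3 over those of R273H. let-7d-3p was not analysed here, and the other passengers had at most 10 reads in any library. These 2 strands were singled out after their counts were seen, and no test was made of them.

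Outside the family, the miRNA whose profile over the 8 libraries was most like that of the summed members was miR-301a-3p, with a root mean square difference of 0.182 in centred log2 RPM, among 140 miRNAs of at least 100 RPM. miR-221-5p and miR-103a-3p followed, both at 0.207. The sum of the family moves mostly with let-7a.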

How the data were processed

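Small RNA from 8 libraries, 2 in each of 4 groups taken from GEO's labels, was analysed. After trimming, the authors aligned reads to miRBase (SHRiMP) and to GRCh37 (Novoalign) and normalized the counts per feature with DESeq. Each deposited signal value is the reads over the size factor of its library, in 3 tables normalized separately. All values (100%) were whole multiples of 1 read within a tolerance of 0.006, so reads were recovered from each table. The deposited tables of comparisons hold the authors' own fold changes and p-values and were not used.

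miRNAs averaging 3 or more normalized counts were tested on log2(normalized count + 1) in limma 3.58.1 under R 4.3.3, with variances moderated along an intensity trend and with Benjamini-Hochberg adjustment over all miRNAs tested. The comparison of the treated lines and the difference of responses, which span 2 tables, used recovered reads with median-of-ratios size factors. edgeR 4.0.16 and DESeq2 1.42.0 on recovered reads were alternatives, beside other pseudocounts (0.5 and 5), filters (none, and a mean of at least 10), scalings, a replicate block and each library left out. Script steps were tested on simulated data. The members and lists were chosen with earlier results of these data known. Named are the 9 members, the cluster partners, miR-21-5p and miR-34a-5p, passenger strands as counts, and the 3 miRNAs closest in profile. Python 3.11.15, pandas 2.3.3 and scipy 1.17.1 were used otherwise. Data of other cell lines and tissues were not analysed here.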

Additional observations from a re-analysis of the deposited data

How the results depend on the processing

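In untreated cells, the count of let-7 members called was 0. It became 1 (let-7d) with a minimum mean of 10 (adjusted p = 0.0458, 57 of 219 miRNAs called) and in edgeR (adjusted p = 0.0472, 43 of 304 called). Under etoposide edgeR called 69 of 334 miRNAs, and the count of 1 (let-7d) became 3, with let-7f (adjusted p = 0.0349) and let-7g (adjusted p = 0.0316). It stayed at 1 with a pseudocount of 5 (67 of 334 miRNAs called) and a minimum mean of 10 (48 of 236). The main fit called 65 of 334 miRNAs. The count became 0 with a pseudocount of 0.5 (adjusted p of let-7d 0.0512, 60 of 334 miRNAs called) and equal upper quartiles (0.0823, 72 of 334). It was also 0 with no filter (0.214, 2 of 792), RPM (0.611, 14 of 338) and RPM without miR-21-5p (0.335, 29 of 337). The same held for limma without the trend (0.164, 24 of 334) and DESeq2 (0.104, 32 of 334). In an alternative added after the data were seen, scaling to the summed let-7 reads, it was 0 as well (0.663, 27 of 335). Fits with 1 library left out hold a group of 1 library and are described by the fold change only. The log2 fold change of let-7d stayed below 0 in both comparisons of the lines, from -1.33 to -0.84 untreated and from -1.30 to -0.74 under etoposide with 1 library left out. let-7d had 25 to 88 reads per library, which limits all of these values.

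The replicate numbers pair nothing in the labels, and the deviations of libraries with the same number from their group means were correlated over miRNAs by -0.03, 0.04, -0.08 and -0.24 in the untreated lines, EV, R273H and the treated lines. With the replicate number as a block, 0 members were called in any comparison (adjusted p of let-7d 0.213 under etoposide), and over all miRNAs the calls went from 62 to 0, from 2 to 2, from 0 to 0 and from 65 to 17. The calls of miR-125b-5p (adjusted p = 0.0677) and miR-99a-5p (adjusted p = 0.0617) were lost, and that of miR-125b-5p also in limma without the trend (adjusted p = 0.0787). Under etoposide, miR-100-5p (adjusted p = 0.0325) and miR-125b-5p (adjusted p = 0.00902) passed in edgeR, and both also passed in DESeq2 and in RPM.

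The log2 ratio of the family total moved to 0.036 (EV), -0.38 (R273H) and -0.58 (treated lines) with normalized counts on the size factors of each comparison's own fit, and without miR-21-5p to 0.15 (R273H) and -0.48 (treated lines). Without 1 library it ranged from -0.40 to -0.12 (untreated lines), 0.27 to 0.55 (EV), 0.22 to 0.42 (R273H) and -0.45 to -0.25 (treated lines). The EV untreated replicate 2 gave the -0.12 when left out.

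Of the results on single members, 32 turned their sign under an alternative that keeps all libraries, 384 kept their direction and side of the threshold, 4 passed it and 9 no longer did. None of the 32 was past the threshold, and the cause was not tested. The cluster partner miR-99b-5p also turned, to 0.094 on summed let-7 reads and 0.00043 with equal upper quartiles. For the untreated lines these were let-7c (-0.12) and let-7e (-0.10) in edgeR, let-7e (-0.026) in DESeq2, and miR-98 in RPM (-0.044), the same without miR-21-5p (-0.046), edgeR (-0.24) and DESeq2 (-0.093), and let-7a (0.038) and let-7b (0.0037) on summed let-7 reads. For etoposide in EV, RPM with and without miR-21-5p gave 0.38 and 0.33 (let-7a), 0.37 and 0.32 (let-7b), and 0.38 and 0.33 (let-7d), and let-7a gave 0.00085 in edgeR and 0.059 in DESeq2. For etoposide in R273H the 2 scalings gave 0.21 and 0.046 (let-7a) and 0.51 and 0.34 (let-7f), equal upper quartiles gave -0.10 (let-7b), -0.11 (let-7d) and -0.074 (let-7g), and let-7d gave -0.016 in edgeR and -0.023 in DESeq2. For the treated lines let-7b gave 0.063 with equal upper quartiles, 0.085 in RPM and 0.43 on summed let-7 reads, and let-7e gave -0.00023 in edgeR and -0.0012 in DESeq2. The difference of responses of let-7d was -0.0043 in DESeq2.

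With 1 library left out, 34 values of single members turned their sign. The ranges were, for the untreated lines, -0.40 to 0.13 (let-7a), -0.41 to 0.077 (let-7b), -0.33 to 1.20 (let-7c), -0.20 to 0.39 (let-7e) and -0.48 to 0.57 (miR-98). For etoposide in EV they were -0.55 to 0.46 (let-7a), -0.81 to 1.22 (let-7c), -0.27 to 0.19 (let-7d), -0.43 to 0.51 (let-7e), -0.29 to 0.35 (let-7f), -0.075 to 0.34 (let-7g) and -0.061 to 0.39 (let-7i). For etoposide in R273H they were -0.25 to 0.27 (let-7b), -0.26 to 0.27 (let-7d), -0.079 to 0.16 (let-7g), -0.17 to 0.70 (let-7i) and -0.36 to 0.70 (miR-98). For the treated lines they were -1.12 to 0.0043 (let-7a), -0.35 to 0.19 (let-7b), -2.0 to 0.20 (let-7c) and -0.30 to 0.76 (let-7e), and for the difference of responses -0.19 to 0.29 (let-7d). A group left with 1 library was assumed to vary like the other.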
